A study of Ovis aries with 16 samples.

Results

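MIR148A, MIR152 and MIR194 are microRNA (miRNA) genes, and the mature products of MIR148A and MIR194 are known as liver-rich miRNAs. They were chosen by name, with earlier results of these data known. MIR148A and MIR152 were taken because their mature miRNAs share a seed, and MIR194 as a hepatocyte miRNA. Together they make up 3 of the 105 miRNAs in the table used. The table covers liver and muscle of 8 female sheep (Ovis aries), each ewe giving both tissues, so that 16 small RNA libraries form 4 groups of 4: control liver, prenatal T liver, control muscle and prenatal T muscle. Ewes 98, 131, 132 and 201 were controls and ewes 48, 185, 233 and 255 had been exposed to excess testosterone before birth (prenatal T). The sources used here give no breed, age, dose, time of exposure or vehicle, and do not say which muscle was sampled. The series' title frames the work as developmental programming, and the comparisons ask whether prenatal T changed non-coding RNA in these metabolic tissues.

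A miRNA loads into an Argonaute protein and pairs through its seed, the bases near its 5′ end, with sites in messenger RNAs, which are then translated less and decay faster. miR-148a is among the most abundant miRNAs of hepatocytes, and in mouse and human it targets the LDL receptor mRNA and the cholesterol exporter ABCA1. miR-152 carries the same seed, and miRNAs of this seed family target the DNA methyltransferase DNMT1 in human and mouse cells. miR-194 is made from shared transcripts with miR-192 or miR-215 in human and mouse and marks hepatocytes and intestinal epithelium. In the RefSeq annotation of assembly ARS-UI_Ramb_v3.0, in which all 105 names were found, MIR152 lies within the span of COPZ2, a coatomer subunit gene, between NFE2L1 and CDK5RAP3. MIR194 lies within the span of EHD1, a gene of endosome recycling, with CDC42BPG and ATG2A as neighbours. No gene spans MIR148A, which sits between LOC121819411 and LOC101107436.

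Reads of all miRNAs numbered 206304 to 755344 per liver library and 113522 to 885316 per muscle library. The numbers in the library names fall into a lower and a higher series, called library set 1 and set 2 here. What they stand for is not said in the sources used here. Set 1 held 2 of the 8 livers (ewes 98 and 48) and 7 of the 8 muscles, and set 2 held 6 livers and the muscle of ewe 255, so tissue and library set overlap to a large extent. The tissue labels matched the marker miRNAs that were measured. MIR133, the only skeletal muscle miRNA of 9 listed that was analysed here, took 37.2% to 56.4% of miRNA reads in muscle and 0.0290% to 0.227% in liver. MIR148A and MIR194 were the 2 of 8 listed hepatocyte miRNAs analysed here, so that list gives no check on the members apart from themselves.

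All 3 members were abundant in liver and scarce in muscle, in every ewe. Together they took 10.8% to 15.6% of the miRNA reads of a liver library and 0.232% to 0.413% of those of a muscle library. MIR148A led in both tissues. MIR194 came second in liver and last in muscle, where MIR152 lay above it. The 8 livers and the 8 muscles did not overlap for any member. The share of all miRNAs that separate the tissues in this way was not counted. In control ewes 76.3% of tested miRNAs differed between tissues at a limma adjusted p below 0.05, so separation alone says little about the members.

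MIR148A took 8.48%, 11.02%, 9.33% and 8.23% of miRNA reads in the livers of control ewes 98, 131, 132 and 201, a mean of 9.27% ± 1.26 (SD, n = 4). In the livers of prenatal T ewes 48, 185, 233 and 255 it took 12.2%, 10.5%, 7.23% and 7.76%, a mean of 9.41% ± 2.32 (SD, n = 4). It ranked between 2 and 4 of 105 in every liver. In muscle its share was 0.202%, 0.329%, 0.329% and 0.247% in the controls in the same order and 0.175%, 0.314%, 0.247% and 0.292% in the prenatal T ewes. These shares put it at ranks 26 to 31. The lowest liver value, that of ewe 233, was far above the highest muscle value.

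MIR152, the rarer of the pair with a common seed, took 0.973%, 0.929%, 0.913% and 0.852% of miRNA reads in control liver and 0.949%, 1.01%, 0.820% and 0.763% in prenatal T liver. Its muscle shares were 0.0454%, 0.0620%, 0.0555% and 0.0475% in controls and 0.0454%, 0.0493%, 0.0473% and 0.0379% in prenatal T ewes. Its ranks were 23 to 27 in liver and 36 to 38 in muscle, so its place among the miRNAs moved less between tissues than those of the other members. In muscle it rested on 43 to 402 reads, and the 43 reads of ewe 255 give a 95% Wilson interval of 0.0281% to 0.0510%, which covers counting error only.

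MIR194 took 2.24%, 2.65%, 2.04% and 2.56% of miRNA reads in control liver and 2.44%, 2.94%, 2.74% and 2.49% in prenatal T liver. In muscle it took 0.0146%, 0.0216%, 0.0172% and 0.00936% in controls and 0.0117%, 0.00963%, 0.0136% and 0.0203% in prenatal T ewes. It ranked 9 to 17 in liver and 40 to 44 in muscle, the widest move of the 3. Its muscle libraries held 23 to 104 reads. At 23 reads, in ewe 255, the 95% Wilson interval of its share ran from 0.0135% to 0.0304% (counting error only). The intervals of deeper muscles were narrower, and those of control ewes 131 and 201, the highest and lowest control muscles, did not overlap.

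**Figure D1:**
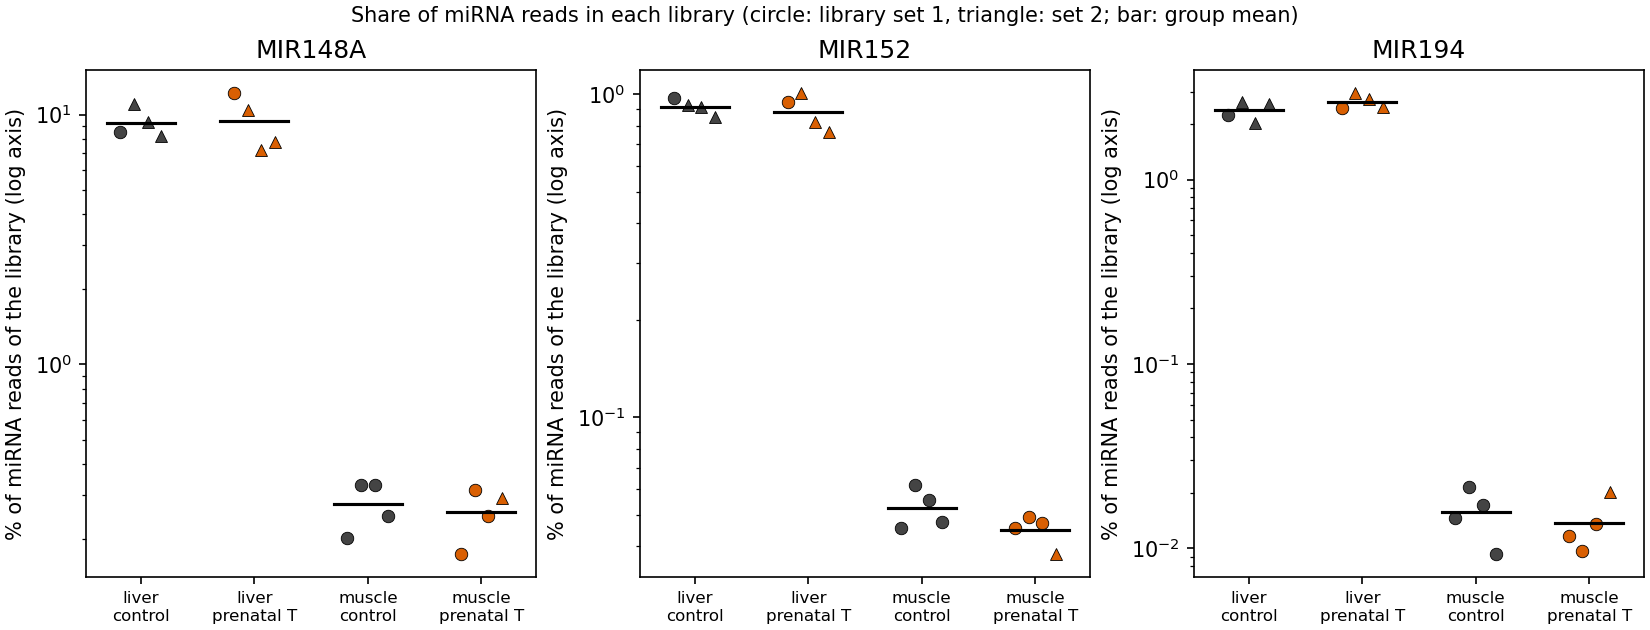
Share of each member in the miRNA reads of each of the 16 libraries (percent, log axis), by group of 4 ewes. Liver points lie far above muscle points for all 3 members, with MIR148A at 7.23% to 12.2% in liver, while control and prenatal T points intermingle within each tissue.

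Liver and muscle were compared first in control ewes, on recovered reads scaled jointly over both tissues. Both tissues came from the same ewes, but this fit, like that of prenatal T ewes below, held no term for ewe. MIR194 was 55.2-fold higher in liver (95% confidence interval 38.3 to 79.7), MIR148A 12.1-fold (9.04 to 16.1) and MIR152 6.22-fold (4.96 to 7.80), on the log2(value + 1) scale with 4 livers against 4 muscles. The log2 fold changes were 5.79 (SE 0.24) for MIR194, 3.59 (SE 0.19) for MIR148A and 2.64 (SE 0.15) for MIR152. With limma and Benjamini-Hochberg adjustment over the 76 miRNAs tested, the adjusted p was 1.0e-09, 6.2e-09 and 1.1e-08. All 3 members passed as higher in liver, as did 42.1% of all tested miRNAs, while 34.2% passed as lower and 76.3% in either direction. A call alone therefore says little about the members. By size they ranked 3, 5 and 7 from the highest of 76, below MIR200B (log2 fold change 7.51) and MIR200A (6.39), miRNAs of epithelial cells. MIR369 (4.14) lay between MIR194 and MIR148A, and MIR200C (2.78) between MIR148A and MIR152. In bulk tissue, fewer cells of a type and less RNA per cell cannot be told apart.

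In prenatal T ewes the same members stood in the same order. MIR194 was 80.0-fold higher in liver (58.7 to 109), MIR148A 14.9-fold (10.6 to 21.0) and MIR152 7.97-fold (5.47 to 11.6). The log2 fold changes were 6.32 (SE 0.21), 3.90 (SE 0.23) and 2.99 (SE 0.25), with limma adjusted p of 1.9e-12, 2.5e-09 and 1.1e-07. They ranked 3, 6 and 7 from the highest of 75, and 36.0% of tested miRNAs passed as higher in liver, against 26.7% as lower and 62.7% in either direction. MIR200B, MIR200A, MIR200C (4.12) and MIR494 (3.94) were the other miRNAs above MIR152. The control and prenatal T comparisons share no library, and the order of the 3 members was the same in both.

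The size of these folds depended on how liver and muscle were put on a common scale. MIR133 alone takes about as many reads in muscle as all other miRNAs together, which lowers the share of every other miRNA there. As a ratio of shares in the same ewe, MIR148A was 26.6 to 69.7 times higher in liver, MIR152 15.0 to 21.4 times and MIR194 119 to 305 times. With MIR133 left out of the totals these ratios were 12.8 to 31.9, 7.36 to 12.7 and 59.4 to 142. On jointly scaled reads they were 10.2 to 26.7, 6.03 to 10.7 and 47.2 to 128. The 8 ewes gave a liver excess on all 3 scales, and the order MIR194, MIR148A, MIR152 held in each ewe. Ewe 48 had the highest MIR148A ratio and ewe 185 the highest MIR194 ratio.

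Scaling to miRNA reads moved the median log2 fold change of all tested miRNAs by 1.49 in control ewes and 1.30 in prenatal T ewes, and scaling to the reads of all 4 RNA classes moved it by 2.19 and 2.09. The split of calls moved with it: 32 higher and 26 lower in control ewes became 58 and 4 on miRNA reads and 71 and 4 on the 4 classes. In prenatal T ewes 27 higher and 20 lower became 54 and 7, then 70 and 2. Each of these scalings divides a library by a single factor, which moves all miRNAs almost equally. A member's distance from the median of all tested miRNAs is therefore nearly fixed in advance and is no check on the members. With joint scaling, on the log2 scale, MIR148A stood 3.46 above that median in control ewes, MIR152 2.50 and MIR194 5.66. In prenatal T ewes MIR148A stood 3.70 above the median, MIR152 2.80 and MIR194 6.12.

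**Figure D2:**
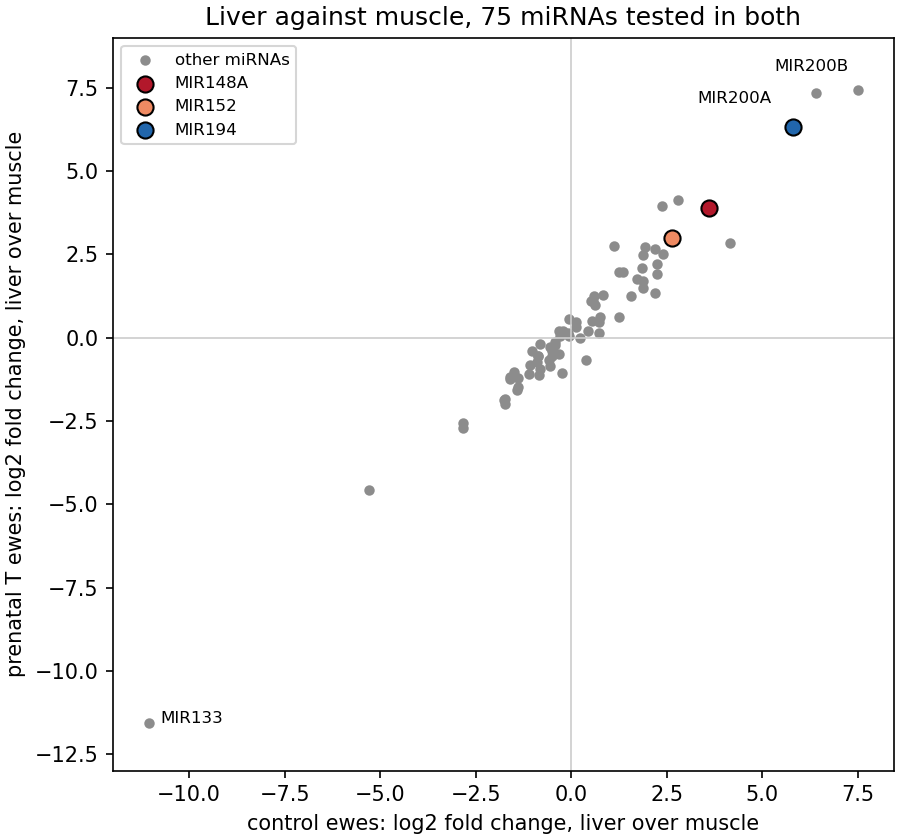
Log2 fold change of liver over muscle in control ewes (x) and prenatal T ewes (y) for the 75 miRNAs tested in both. MIR194 lies close to MIR200A and MIR200B at the upper right, MIR148A and MIR152 below it, and MIR133 alone at the lower left.

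Since most livers were in set 2 and most muscles in set 1, the tissue difference was also read within a set. The liver of control ewe 98, in set 1 like all 4 control muscles, held 8.48% MIR148A, 0.973% MIR152 and 2.24% MIR194. Its MIR148A and MIR194 shares lay within the range of the other control livers, and its MIR152 share was the highest of the 4. The muscle of prenatal T ewe 255, in set 2 like 3 prenatal T livers, held 0.292%, 0.0379% and 0.0203%. With library set in the limma fit the log2 fold changes were 3.28 for MIR148A, 2.53 for MIR152 and 5.52 for MIR194 in control ewes and 4.12, 3.27 and 6.24 in prenatal T ewes. These fits rest on lone libraries, which are assumed to vary like the rest: within a set the control value compares 1 liver with 4 muscles, and the prenatal T value has 1 liver in set 1 and 1 muscle in set 2. Tissue and library set can therefore be told apart only as far as these libraries go.

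The balance between the members also differed by tissue, and this ratio needs no common scale. MIR148A outnumbered MIR152 by 10.1 ± 1.32 (SD, n = 4) reads to 1 in control liver and 10.5 ± 1.67 in prenatal T liver, against 5.22 ± 0.606 and 5.78 ± 1.64 in the muscles. The lowest of 8 livers, 8.72, lay above the highest of 8 muscles, 7.70, which was the set 2 muscle of ewe 255. MIR148A thus made up 89.7% to 92.8% of the reads of the 2 miRNAs with a common seed in liver and 79.4% to 88.5% in muscle. MIR148B, the remaining member of that seed family, was not analysed here.

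MIR194 changed its place relative to the seed pair. Per MIR152 read, control liver held 2.596 ± 0.387 (SD, n = 4) MIR194 reads and prenatal T liver 3.02 ± 0.353. In muscle there were 0.294 ± 0.0668 and 0.319 ± 0.149. MIR148A exceeded MIR194 by 2.64 to 4.996 times in the livers and by 13.8 to 32.6 times in the muscles. The tissues did not overlap for either ratio, while control and prenatal T libraries overlapped within each tissue for all 3 ratios. These ratios are descriptions and were not tested.

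**Figure D3:**
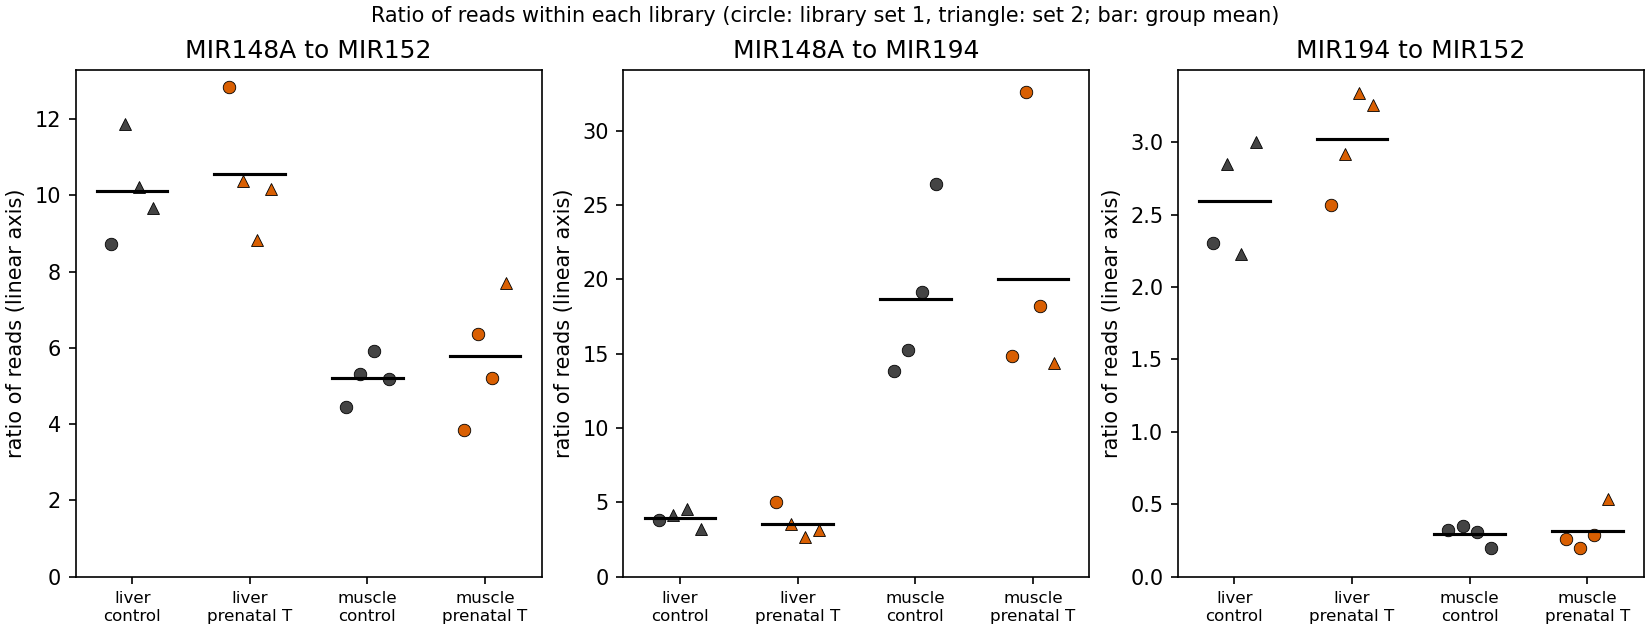
Ratio of recovered reads of MIR148A to MIR152, MIR148A to MIR194 and MIR194 to MIR152 in each library (linear axes from 0), with group means as bars and library set 1 as circles and set 2 as triangles. Each panel separates liver from muscle, and the muscle of ewe 255, a triangle, has the highest MIR148A to MIR152 ratio of the muscles at 7.70.

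Prenatal T was next compared with control within each tissue, on the values as deposited, which are normalised reads (reads divided by a factor for each library). None of the 3 members passed the test in liver or in muscle. Control and prenatal T libraries overlapped for every member in both tissues, and over all tested miRNAs the groups did not overlap for 1.23% in liver and 3.12% in muscle.

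In liver, MIR148A had 30454, 43875, 36537 and 32768 normalised reads in control ewes 98, 131, 132 and 201 and 45221, 44267, 24560 and 27605 in prenatal T ewes 48, 185, 233 and 255. The prenatal T livers fell on both sides of the control range, with ewes 48 and 185 above it and ewes 233 and 255 below. MIR152 had 3493, 3700, 3578 and 3391 normalised reads in controls and 3526, 4267, 2782 and 2716 in prenatal T ewes. Here ewe 48 lay within the control range, ewe 185 above it and ewes 233 and 255 below it. MIR194 had 8037, 10552, 7982 and 10173 normalised reads in controls and 9052, 12437, 9292 and 8847 in prenatal T ewes. For MIR194 only ewe 185 lay outside the control range, above it.

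The group means in liver were 35909 ± 5873 (SD, n = 4) and 35413 ± 10853 for MIR148A, 3541 ± 131 and 3323 ± 729 for MIR152, and 9186 ± 1367 and 9907 ± 1697 for MIR194, control first. The log2 fold change of prenatal T over control was -0.059 (SE 0.21, 95% confidence interval -0.50 to 0.38) for MIR148A, -0.12 (SE 0.19, -0.53 to 0.30) for MIR152 and 0.11 (SE 0.18, -0.28 to 0.49) for MIR194. The adjusted p was 0.959 for each member (limma, Benjamini-Hochberg over 81 miRNAs), and 0.0% of the 81 passed. At an unadjusted p under 0.05 there were also 0 with limma, and edgeR and DESeq2 on recovered reads called 0 at the adjusted threshold. The intervals leave room for changes of up to about the size of their bounds, so the p-values do not show equal levels. The direction of MIR148A was not fixed: without control ewe 131, prenatal T ewe 233 or prenatal T ewe 255 its log2 fold change was 0.042, 0.099 and 0.043, while without prenatal T ewe 48 or 185 it was -0.19 and -0.18. That of MIR152 was -0.24 without prenatal T ewe 185, -0.039 without ewe 233 and -0.028 without ewe 255. That of MIR194 was -0.0076 without ewe 185, 0.046 without control ewe 98, 0.043 without control ewe 132 and 0.18 without control ewe 131.

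In muscle, MIR148A had 886, 1280, 1352 and 1053 normalised reads in controls and 759, 1261, 1098 and 871 in prenatal T ewes. MIR152 had 199, 241, 228 and 203 in controls and 197, 198, 210 and 113.1 in prenatal T ewes, of which the value of ewe 255 stood apart below the rest. MIR194 had 64.1, 83.9, 70.6 and 39.9 in controls and 51.0, 38.7, 60.3 and 60.5 in prenatal T ewes. Ewes 48 and 255 were below the controls for MIR148A, ewes 48, 185 and 255 for MIR152 and ewe 185 for MIR194. Normalised reads of liver and muscle are scaled separately and are not compared here.

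The muscle means were 1143 ± 214 (SD, n = 4) and 997 ± 226 for MIR148A, 218 ± 20.2 and 180 ± 44.8 for MIR152, and 64.6 ± 18.4 and 52.6 ± 10.3 for MIR194, control first. The log2 fold changes were -0.21 (SE 0.19, 95% confidence interval -0.62 to 0.21), -0.31 (SE 0.23, -0.80 to 0.17) and -0.26 (SE 0.29, -0.88 to 0.36). The adjusted p was 0.778 for each (limma, over 64 miRNAs), and 0.0% of the 64 passed, with 5 at an unadjusted p under 0.05 and 0 called by edgeR or DESeq2. All 3 point estimates were below 0, as was the median of all tested miRNAs at -0.045. All 3 values moved by more than 1.5 times when a library was left out, and all stayed below 0. The MIR152 value was -0.10 without ewe 255. That of MIR148A was -0.083 without prenatal T ewe 48, -0.12 without control ewe 132, -0.32 without control ewe 98 and -0.33 without prenatal T ewe 185. That of MIR194 was -0.12 without control ewe 131, -0.13 without prenatal T ewe 185 and -0.47 without control ewe 201. The library of ewe 255 was also the shallowest of the muscles, the sole muscle of set 2 and the one with the lowest MIR133 share, 37.2% against 50.0% to 56.4% in the other muscles. The part of these features in its MIR152 value was not tested.

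The prenatal T effect was then compared between tissues in a single fit of all 16 libraries, with no term for ewe. The difference, liver minus muscle, was 0.15 (SE 0.30, 95% confidence interval -0.47 to 0.76) on the log2 scale for MIR148A, 0.20 (SE 0.31, -0.43 to 0.83) for MIR152 and 0.37 (SE 0.33, -0.30 to 1.04) for MIR194. The limma adjusted p over 76 miRNAs was 0.886, 0.841 and 0.841, and 0.0% of the 76 passed, with 2 at an unadjusted p under 0.05 and 0 called by edgeR or DESeq2. No difference between tissues was detectable for any member, and the intervals are wider than those within a tissue. Without the muscle of ewe 255 the MIR152 difference was -0.011. With a library left out, the MIR148A difference ran from 0.010 (liver of ewe 48) to 0.30 (liver of ewe 233) and that of MIR194 from 0.23 (muscle of ewe 131) to 0.58 (muscle of ewe 201).

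**Figure D4:**
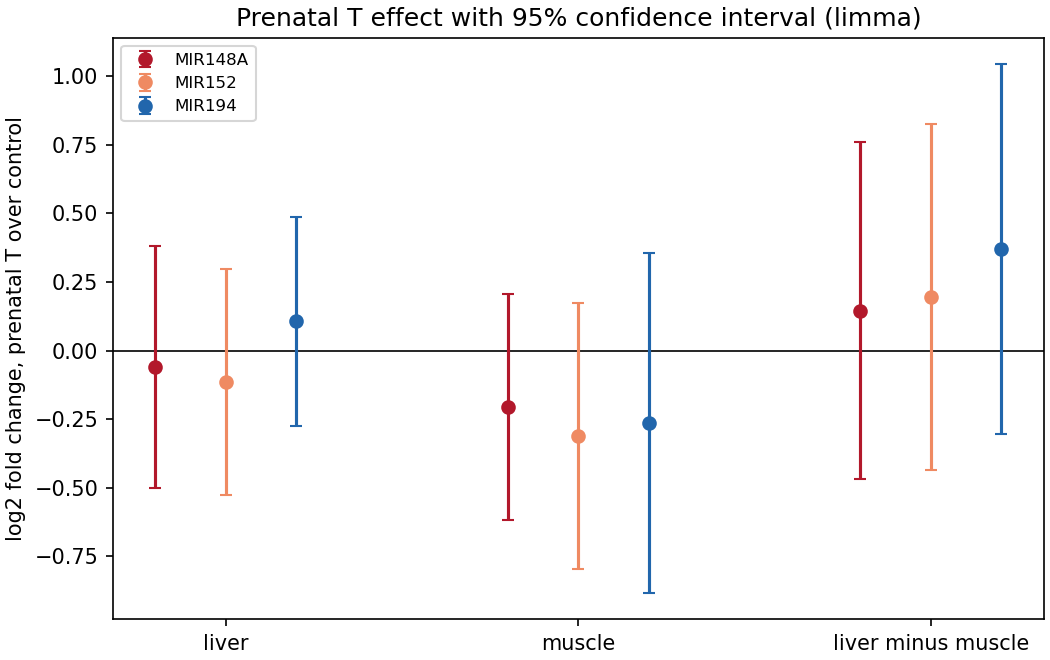
Log2 fold change of prenatal T over control for each member in liver and in muscle, and the difference of these effects, with 95% confidence intervals from limma. Every interval includes 0, and the widest belong to the difference between tissues.

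MIR148A and MIR152 varied together from ewe to ewe in liver. Over the 8 livers, Pearson's r of their log2 normalised reads was 0.847 (exact permutation p = 0.0049, adjusted p = 0.0293 over 6 relations) and Spearman's rho 0.810 (exact permutation p = 0.0218, adjusted p = 0.0653). The 2 livers farthest from the median of MIR148A were those of ewes 48 and 233, and without them r was 0.862. Within the 6 livers of set 2, r was 0.942. Scaled to miRNA reads instead, r was 0.713, and scaled to the reads of 4 RNA classes it was 0.764. Ewes 185 and 131 were among the 3 highest livers for both, and ewes 233 and 255 were the lowest for both. Without those lowest livers, left out after their values were seen, r fell to 0.589 (n = 6), so part of the relation rests on them. Other miRNAs gave values of like size. As deviations of log2 jointly scaled reads from the group means over the 8 livers, looked at after the values were seen, MIR148A and MIR152 had r = 0.893, beside 0.881 for MIR148A with MIR99A, 0.871 for MIR148A with MIR30A, 0.891 for MIR152 with MIR30A and 0.856 for MIR152 with MIR221.

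For MIR194 no relation with the other members passed, and its values moved with the scale and the livers used. In liver its r was 0.457 with MIR148A and 0.488 with MIR152, with adjusted p of 0.384 for both (exact permutation tests, n = 8), and on the scale of miRNA reads these values were 0.0457 and -0.0233. Within set 2 they were 0.561 and 0.621, and without the 2 farthest livers 0.682 and 0.723. These values of r were not tested against that of MIR148A with MIR152. In muscle, MIR148A and MIR152 had r = 0.539 (exact permutation, adjusted p = 0.384) and rho = 0.810 (adjusted p = 0.0653). The muscle values of MIR194 gave r = 0.170 with MIR148A and 0.158 with MIR152 (exact permutation, adjusted p = 0.693 for both). The value with MIR152 rested on ewe 255: within the 7 muscles of set 1, which leave that ewe out, r was 0.783, and without the 2 muscles farthest from the median of MIR152 (ewes 131 and 255) it was 0.621. With MIR148A the same values were 0.219 in set 1 and -0.0886 without ewes 132 and 48.

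**Figure D5:**
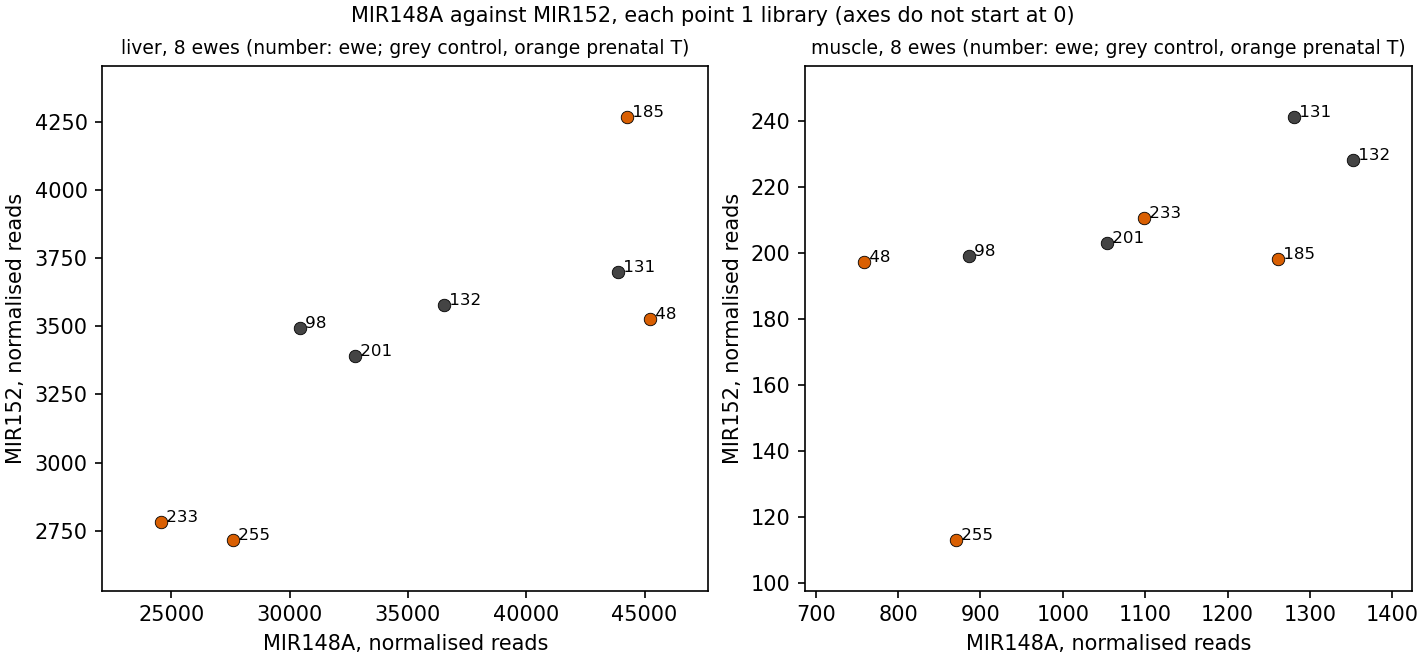
MIR148A against MIR152, in normalised reads on linear axes that do not start at 0, in the 8 livers and the 8 muscles, with ewe numbers and groups marked. In liver the points rise together (r = 0.847 on the log2 scale), with prenatal T ewes at both ends, and in muscle ewe 255 lies low for MIR152.

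The spread among ewes of a group was low for MIR152 and MIR194 in liver and near the middle of the tested miRNAs otherwise. In liver the within-group SD of log2 values was 0.36 for MIR148A, 0.22 for MIR152 and 0.22 for MIR194, beside a median of 0.33 over the 81 miRNAs tested, which gave ranks 34, 66 and 64 from the highest. In muscle it was 0.30, 0.31 and 0.38, beside a median of 0.31 over 64, at ranks 33, 32 and 26. MIR152 had its smallest spread in control liver, where the 4 ewes ran from 3391 to 3700 normalised reads, and in prenatal T liver they ran from 2716 to 4267. The difference in spread was not tested.

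Among the other 75 miRNAs compared over all 16 libraries, each member's level was most like that of the other members and of a few liver-high miRNAs. For MIR148A the highest Pearson correlations of log2 jointly scaled reads were with MIR152 (0.990), MIR194 (0.987) and MIR200B (0.987). For MIR152 they were with MIR148A, MIR30A (0.990) and MIR194 (0.983), and for MIR194 with MIR200B (0.992), MIR148A and MIR152. The points share tissue, library and depth, and any miRNA that separates the tissues scores high. After subtraction of the 4 group means, MIR148A was most like MIR99A (0.756), MIR152 (0.652) and MIR29B-2 (0.643). MIR29B-1 had the same group values as MIR29B-2, so this likeness is not particular to either row. MIR152 was most like MIR29A (0.889), MIR17 (0.882) and MIR374B (0.849). MIR194 was most like MIR221 (0.801), MIR200A (0.750) and MIRLET7I (0.687).

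Marker miRNAs of other cell types were read beside the members. The epithelial markers MIR200A, MIR200B and MIR200C were 3 of 5 listed. They summed to 0.408% to 1.07% of miRNA reads in the 8 livers and 0.000896% to 0.00356% in the muscles. Each passed as higher in liver. In a muscle library MIR200A had 0 to 4 reads, MIR200B 1 to 7 and MIR200C 0 to 10. They reached the filter of the test mainly through liver, so these calls were nearly fixed in advance and are no support for the members. Of all tested miRNAs, 42.1% passed as higher and 34.2% as lower in control ewes, and 36.0% and 26.7% in prenatal T ewes. The stellate and mesenchymal markers MIR10B, MIR143 and MIR199A, 3 of 5 listed, summed to 7.35% to 11.4% in liver and 1.95% to 4.04% in muscle, but did not move together. With joint scaling in control ewes MIR10B was lower in liver (log2 fold change -5.30), MIR199A higher (0.51) and MIR143 did not pass (-0.055, limma adjusted p = 0.771). MIR10A of the endothelial list ran from 0.0806% to 0.164% in liver and 0.0381% to 0.0695% in muscle, and MIR16B of the erythroid list from 0.300% to 0.607% and 0.207% to 0.474%. By share both were higher in control liver, whereas with joint scaling both passed as lower there, MIR10A at a log2 fold change of -0.83 (limma adjusted p = 0.0019) and MIR16B at -0.51 (adjusted p = 0.0208). MIR150 of the immune list ran from 0.0878% to 0.184% in liver and 0.189% to 0.531% in muscle. The muscle marker MIR133 reached 0.227% in the liver of ewe 98 and at most 0.0639% in the other 7 livers. None of these markers was at 0 in a whole group, and their part in the members' values was not tested.

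The members were last set beside other miRNAs of the processes they are known for. Of 15 miRNAs listed as regulators of cholesterol and lipid metabolism, 7 were analysed here and 6 could be tested between tissues. Over all tested miRNAs, 42.1% passed as higher and 34.2% as lower in control ewes, and 36.0% and 26.7% in prenatal T ewes. In control ewes MIR148A alone passed as higher in liver, and MIR10B, MIR30C, MIR106B and MIR26A passed as lower, with a median log2 fold change of -0.90 beside 0.13 for all tested miRNAs. In prenatal T ewes MIR148A passed as higher and MIR10B, MIR30C and MIR106B as lower, with a median of -0.70 beside 0.20. These directions hold for joint scaling. As a share of miRNA reads MIR26A was higher in control liver, at 15.4% ± 1.91 (SD, n = 4) against 7.24% ± 0.312 in control muscle. MIR106B was higher there by its mean only, at 0.157% ± 0.0655 against 0.138% ± 0.00712. Its median was lower in control liver, at 0.125% against 0.139%, and a single liver at 0.255% raised the mean. MIR30C was a little lower, at 0.512% ± 0.0623 against 0.548% ± 0.0404. MIR10B was lower on that scale too, at 0.0271% ± 0.0110 against 0.364% ± 0.0495. In prenatal T ewes the mean share of MIR30C was higher in liver (0.548% against 0.515%) and that of MIR106B lower (0.127% against 0.146%). None of these miRNAs passed for prenatal T in either tissue.

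The DNA methyltransferase list held MIR148A, MIR152 and the miR-29 family, whose members target DNMT3A and DNMT3B in human cells. Of its 5 listed miRNAs 4 were analysed here, in 5 rows, and MIR29C was not. MIR29B-1 and MIR29B-2, which carry the same mature miRNA, had the same group values and are uncertain as separate loci. Between tissues, 42.1% of all tested miRNAs passed as higher and 34.2% as lower in control ewes, and 36.0% and 26.7% in prenatal T ewes. In control ewes the 2 seed-sharing members passed as higher in liver and MIR29B-1 and MIR29B-2 as lower (log2 fold change -0.87, limma adjusted p = 0.0195), while MIR29A was at -0.32 (adjusted p = 0.0597). In prenatal T ewes MIR148A and MIR152 passed as higher and none of the 5 as lower, with MIR29A at 0.20 (adjusted p = 0.481). On the share scale the miR-29 values turned: MIR29A took 0.970% ± 0.0450 (SD, n = 4) of miRNA reads in the control livers and 0.432% ± 0.0325 in the control muscles. For prenatal T none of the 5 passed in either tissue, with median log2 fold changes of 0.12 in liver and -0.21 in muscle over the 5 rows. With the identical MIR29B rows counted once the medians were 0.030 and -0.21.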

How the data were processed

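Small RNA libraries were made from total RNA of liver and muscle, per the labels' protocols (Trizol extraction, NEBNext small RNA kit). Tools named in the submitters' processing notes are STAR 2.6.0c, cutadapt 3.2 and featureCounts 1.6.1. The sources used here do not state their order, the genome build, the read filters, how multi-mapping reads were treated or which miRNA arm was counted. The deposited table holds a normalised signal, in which the authors divided each library's reads by its own factor; the factors were set within a tissue, since the median ratio to the mean library was 0.995 in each liver and 1.02 in each muscle. All 1432 miRNA values above 0 were whole multiples of a single read within 0.001 reads, and these recovered reads gave depths, shares and the tissue comparison. The deposited signal of the other RNA classes was used only for totals.

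limma 3.58.1 in R 4.3.3, with a variance trend, was fitted to all miRNAs on log2(value + 1) with a mean of at least 5, and p-values were adjusted by Benjamini-Hochberg at 0.05. Liver and muscle were scaled jointly by median-of-ratios factors. Tests were two-sided. Alternatives were edgeR 4.0.16 and DESeq2 1.42.0 on recovered reads, other pseudocounts, filters and scalings, library set, each library left out, and ewe as a replicate block. Livers and muscles with the same number come from the same ewe, by the sheep number in the labels, and their deviations from group means correlated between -0.277 and 0.380 over 76 miRNAs. Replicate libraries differed by more than counting noise (chi-square per degree of freedom 24.2 to 292), so none was a duplicate. The fits were also run on simulated reads in which a minority of miRNAs was changed by set folds, and the outcome is not reported here. Most miRNAs differed between tissues, so that setting does not cover the tissue comparisons.

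Members and lists were chosen with earlier results of these data known. Named miRNAs are the members, the 3 most like each, those ranked beside them, and list members.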

Additional observations from a re-analysis of the deposited data

Results flagged for a closer look

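Of 44 sets of 4 libraries examined for a sample far from the others, 2 had one, and chance gives about 1 in 20. MIR152 in the muscle of prenatal T ewe 255 had 113.1 normalised reads, where the other 3 prenatal T muscles lay between 197 and 210. MIR194 in the liver of prenatal T ewe 185 had 12437 normalised reads, where the other 3 prenatal T livers lay between 8847 and 9292. Neither value was flagged as a share of miRNA reads, which was examined by the same rule. On that scale MIR152 took 0.0379% in the muscle of ewe 255, beside 0.0454% to 0.0493% in the other 3. MIR194 took 2.94% in the liver of ewe 185, beside 2.44% to 2.74% in the other 3. Both flags therefore hold for normalised reads only.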

How the results depend on the processing

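Over 336 alternatives to the 15 member results, 330 kept direction and side of the threshold and 6 reversed, none of them a call. The liver effect of prenatal T on MIR148A turned to 0.024 when scaled to 4 RNA classes. Within the livers of library set 2 it was -0.27, beside -0.16 for MIR152 and 0.085 for MIR194. With a library left out, the liver effect on MIR148A ran from -0.19 to 0.099 and that on MIR194 from -0.0076 to 0.18. The MIR152 difference between tissues then ran from -0.011 to 0.29. The cause was not tested. Calls between tissues in prenatal T ewes rose from 47 to 72 when scaled to 4 classes, and ran from 45 to 53 with a library left out (52 to 62 in control ewes). With ewe as a replicate block, calls were 58 in control ewes, 50 in prenatal T ewes and 0 for the difference, and no member's call changed. With 4 ewes a group and 23 to 104 MIR194 reads per muscle, small differences are beyond reach. No paired analysis was possible for prenatal T against control because each ewe is in 1 group.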
